A study of Mus musculus with 2 samples.

Results

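The cells described here are the induced macrophages (iMac) in which transcripts of Ms4a7 and Folr2 were counted together with few transcripts of Prtn3 and Ly6c2. A barcode, which stands for the content of 1 droplet, was kept with at least 500 genes, at most 15% mitochondrial counts and at least 5000 counts in all. Of 6837 barcodes, 86 missed the first or the second limit and a further 1544 the limit on counts, which left 5207 kept cells. A kept cell was called Ms4a7/Folr2-positive with at least 3 counts of the 2 genes together, at least 100 counts per 1000000 of its own counts (CPM), and under 100 CPM of Prtn3 and Ly6c2 together. This gave 285 positive cells, or 5.47% of the kept cells (exact binomial 95% interval 4.87 to 6.13%), and 4922 other kept cells. The cells were thus chosen by the measured levels of these 4 genes, which are given only as a description.

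The study made macrophages from mouse fibroblasts with c-Myc, a transcription factor that drives growth and division, and profiled them by droplet single-cell RNA sequencing on the DNBelab C4 system. The labels list 2 samples of wild type induced macrophages, a cDNA library and an oligo library. No untreated fibroblasts and no macrophages from an animal are among them. The barcodes name neither library, so the matrix is 1 sample without a replicate, and differences between groups of its cells were not tested. How long the cells had carried c-Myc, and whether they come from 1 culture, is not given in the sources used here.

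Ms4a7 is a membrane-spanning protein of the MS4A family, and Folr2 is the folate receptor beta, which binds and takes up folate. Both are known from macrophages in tissues, where they can accompany scavenger receptors, complement C1q and clearance of dead cells. Prtn3 encodes proteinase 3, a granule protease of granulocyte and monocyte precursors, and Ly6c2 encodes the Ly6C antigen of inflammatory monocytes. Ms4a7 lies on the minus strand at chr19:11321039-11336146 and Folr2 on the minus strand at chr7:101839988-101857194 (GENCODE M21, GRCm38).

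Summed over the 285 positive cells, Ms4a7 stood at 248 CPM and Folr2 at 156 CPM, against 5.53 and 2.58 CPM in the other kept cells. Prtn3 stood at 6.60 CPM in the positive cells and 102 CPM in the others. For Ly6c2 the levels were 1.73 and 37.9 CPM. The 2 markers together reached between 101 and 2683 CPM per positive cell, with a median of 307 CPM and 8 counts. Only 33 positive cells rested on exactly 3 marker counts, whereas 121 had 10 or more, and 232 had no count of Prtn3 or Ly6c2. Both markers were counted in 163 positive cells, Ms4a7 alone in 88 and Folr2 alone in 34. Among the other kept cells 4170 had no marker count, 483 had 1 and 171 had 2.

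**Figure D1:**
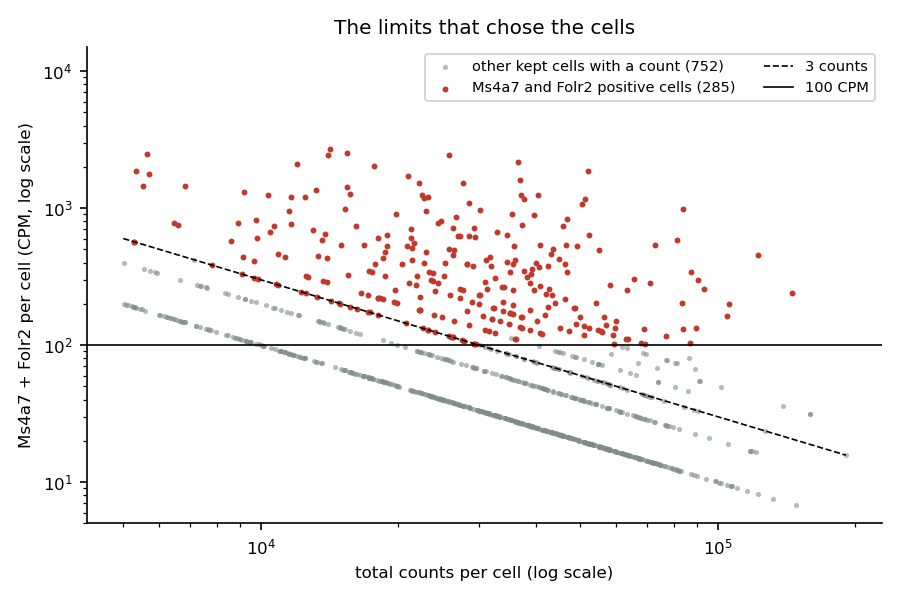
Each point is a kept cell with at least 1 count of Ms4a7 or Folr2, by its total counts (x axis, log scale) and the level of the 2 genes together in CPM (y axis, log scale), with 285 positive cells and 752 others. The dashed line marks 3 counts and the solid line 100 CPM, and most other cells with a marker count lie under the dashed line.

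The limits run through a continuum of marker levels. Just inside, 50 positive cells held 101 to 150 CPM with a median of 126 CPM. Just outside, 49 cells with 3 or more counts reached 67 to 99.6 CPM with a median of 81.0 CPM, and 35 shallow cells passed 100 CPM on 2 counts. Only 4 cells met both marker limits and missed the limit on Prtn3 and Ly6c2. The limit of 3 counts is more easily met in deeper cells. The positive share was 2.23% among cells of under 10000 counts, 5.03% from there to under 20000, 7.81% from there to under 40000, and 5.16% in deeper cells.

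The positive cells differed from the other kept cells in general measures as well. Their median depth was 28214 against 24236 counts, and their median number of genes 4246 against 3851. Ribosomal protein genes took 27.1% of their counts against 32.7%, and 2 transcripts tied to ribosomal RNA signal, Gm42418 and AY036118, took 8.05% against 6.30%. The median mitochondrial share was 0.767% against 0.586%. CPM values carry these differences in composition, and their part in the results below was not tested beyond the alternative scaling given beside the counts of genes.

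The label "mature macrophages" was checked against markers that the rule did not use. All 20 genes of a macrophage list had counts in the positive cells. Cd68, a lysosomal membrane protein of phagocytes, stood at 958 against 441 CPM, and Lyz2, macrophage lysozyme, at 6379 against 3412 CPM. Tyrobp, the adaptor of many myeloid receptors, was abundant in both groups at 6646 and 5671 CPM, as were the transcripts of Csf1r, the receptor of macrophage growth factor, at 194 and 143 CPM. Adgre1, which encodes F4/80, stood at 74.6 against 33.9 CPM. By the measure described below, 15 of the 20 genes were at least 1.5-fold higher in the positive cells and none lower. Their median log2 ratio was 0.96, and 10.2% of all genes tested were higher. The other kept cells carried the same macrophage transcripts at lower or similar levels, so this list sets the positive cells apart in level and not in kind. The word "mature" has no measure of its own in these data, and the cells are named below by their 2 markers.

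Markers of other cell types were summed as well. Of 16 fibroblast genes, 7 were listed, none reached 10 CPM, and their sum was 3.46 CPM in the positive cells against 6.10 CPM in the others. T and NK cell genes summed to 2.81 against 1.78 CPM and mast cell genes to 0.11 against 0.09 CPM. Dendritic cell genes summed to 5.84 against 10.1 CPM, with 5 of the 9 listed at 0 in the positive cells. Genes for monocytes and immature myeloid cells summed to 134 against 131 CPM and those for neutrophils and granulocyte precursors to 9.30 against 15.6 CPM. Microglia genes summed to 252 against 94.8 CPM, osteoclast genes to 75.6 against 37.6 CPM, stem and progenitor genes to 34.6 against 20.4 CPM and alveolar macrophage genes to 14.4 against 7.45 CPM. Kupffer cell and red pulp genes summed to 24.6 against 4.79 CPM, B cell genes to 13.5 against 4.90 CPM and endothelial genes to 19.6 against 6.57 CPM. The sum for erythroid cells and megakaryocytes, 785 against 221 CPM, was nearly all Pf4, a chemokine that tissue macrophages also make, and 4 of the 8 listed genes were at 0. The part of other cell types in the results was not tested.

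Across genes, the positive cells were compared with the other kept cells on counts summed over cells. A gene entered with at least 5 CPM over all kept cells and was counted as higher or lower from 1.5-fold on, with 1 CPM added to both levels. Of 8442 genes, 861 were higher (10.2%) and 960 lower (11.4%), with a median log2 ratio of -0.09. Of the 861 higher genes, 31 were under 5 CPM in the other kept cells and entered only through their level in the positive cells, so a difference in them was fixed by the limit. When ribosomal protein, mitochondrial and ribosomal RNA-like counts were left out of the scaling, 717 were higher and 1413 lower, and the median moved to -0.17. The share of higher genes among those counted either way was thus 47.3% as deposited and 33.7% under that scaling. With 10 CPM added to both levels instead of 1, 547 were higher and 344 lower, a share of 61.4%, so the balance of the 2 directions depends on these settings. Intervals on levels and folds are exact 95% intervals that cover counting error only. They take each count as independent and are too narrow if the counts are of reads and not of molecules, which is not known here.

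The 20 leading genes include antiviral genes, chemokines, receptors, secreted proteins and genes of other kinds such as the GTPase genes Rhov and Rhoc. For 8 of them, Ifit3, Ccl7, Ccl12, Adamts1, Rhov, Tmem86a, Abca1 and Mocos, the other kept cells were under 5 CPM, so these entered the ranking only through the positive cells, and their place is a description. Ifit3, an interferon-induced antiviral protein, led with 44.0 CPM (39.9 to 48.5) against 2.72 CPM (2.46 to 3.0), a 16.2-fold difference (14.1 to 18.6). Its transcripts were found in 89 of the 285 positive cells, and 1 cell held 13.3% of them, so the level was carried by a minority. Rsad2, the antiviral enzyme viperin, stood at 65.1 against 5.59 CPM, 11.6-fold higher (10.5 to 13). Fcgr4, an activating receptor for IgG, was more widespread, with counts in 181 positive cells and 74.0 against 6.95 CPM, 10.6-fold higher (9.65 to 11.7). Among the 20 leading genes the share of the positive cells' counts that came from 1 cell ran from 1.82% for Timp2 to 18.9% for the chemokine gene Ccl7.

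Timp2, an inhibitor of matrix metalloproteinases, had the smallest share of its counts in 1 cell among the 20 leading genes. It stood at 298 CPM (287 to 309) against 39.2 CPM (38.2 to 40.2), was counted in 266 positive cells, and lay above the other cells' median in 93.3% of them. Per cell, the 10th, 50th and 90th percentiles were 48.6, 266 and 688 CPM in the positive cells and 0, 0 and 120 CPM in the others. The lower positive cells thus overlapped with the upper other cells. Selenop, the secreted selenium carrier, also stood at 298 CPM, against 48.6 CPM, with a median cell at 235 against 19.0 CPM. Spp1, the secreted phosphoprotein osteopontin, was the most abundant leading gene, at 2412 against 452 CPM. Its percentiles were 248, 1729 and 5402 CPM in the positive cells and 0, 136 and 1077 CPM in the others, so that high Spp1 cells were also present outside the positive group. Further leading genes were Ccl6 (210 against 25.8 CPM), Cd36 (136 against 23.8 CPM), Tnfsf12 (44.9 against 5.12 CPM) and Adamts1 (40.8 against 4.73 CPM), a chemokine, a lipid scavenger receptor, the cytokine TWEAK and a matrix protease.

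**Figure D2:**
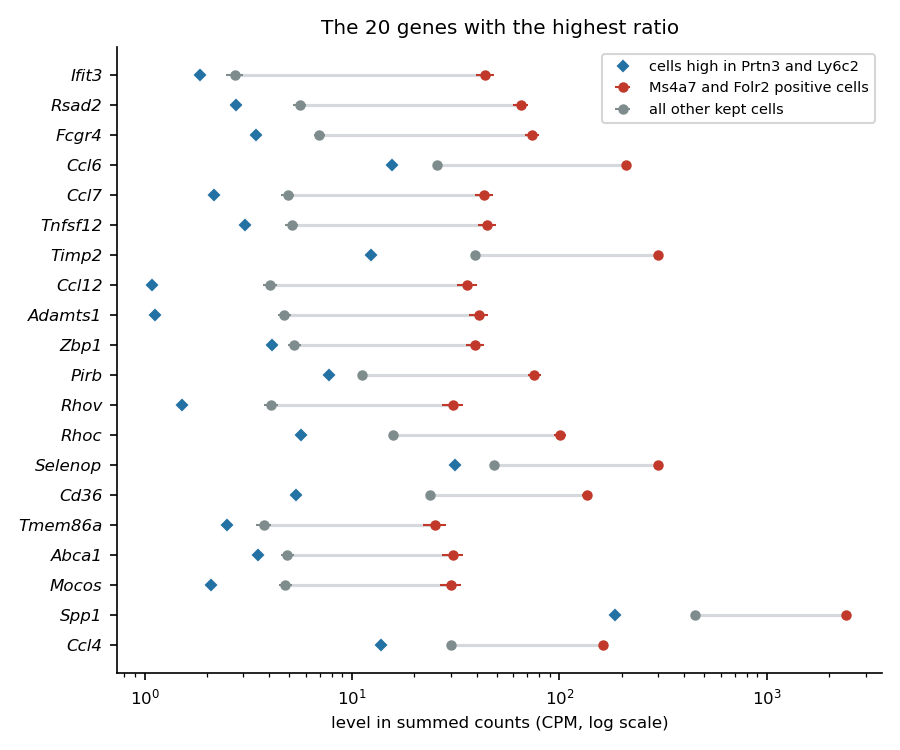
Levels in CPM (log scale) of the 20 leading genes in the 285 positive cells and the 4922 other kept cells, with exact 95% Poisson intervals, and in the 1478 cells high in Prtn3 and Ly6c2 (diamonds, no interval). For Timp2 the levels are 298, 39.2 and 12.4 CPM.

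The same ranking at equal depth was read from cells thinned to 5000 counts each. Timp2 was then counted in 70.2% of positive cells and 14.1% of the others, against 93.3% and 40.2% before thinning. For Fcgr4 the shares were 28.1 and 3.31% at equal depth and 63.5 and 12.6% before, and for Ifit3 14.4 and 1.18% at equal depth and 31.2 and 2.84% before. The positive cells had the larger share in each case, with and without thinning. No cell type that should lack these genes was identified among the cells, so a share due to free RNA in the droplets was not estimated.

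Cells at the other end of the rule gave a second reference. These were the 1478 kept cells with at least 3 counts and 100 CPM of Prtn3 and Ly6c2 and under 100 CPM of Ms4a7 and Folr2, with a median depth of 27735 counts, close to that of the positive cells. Against them, 1160 genes were higher (13.7%) and 1296 lower (15.4%). Spp1 stood at 185 CPM and Cd36 at 5.39 CPM in these cells, both under their levels in the other kept cells as a whole. The 2 comparisons share the positive cells.

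Genes of tissue-resident macrophages formed the first group read, since they accompany the 2 markers in tissues. Of 14 measured genes in that list, 13 were higher and none lower, with a median log2 ratio of 1.57 against -0.09 for all genes tested. Mrc1, the mannose receptor CD206, stood at 222 against 50.2 CPM, and at equal depth it was counted in 51.6% of positive cells and 16.6% of the others (89.1 and 42.2% before thinning). Gas6, a bridge between dying cells and TAM receptors, stood at 134 against 31.4 CPM. Pf4, the chemokine CXCL4, stood at 782 against 220 CPM, and the growth factor gene Igf1 at 485 against 162 CPM. Stab1, a scavenger receptor for modified proteins, was at 72.5 against 22.3 CPM. Ninj1 was the measured gene of the list that did not reach 1.5-fold, at 113 against 80.8 CPM.

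Some well-known resident genes were scarce. Lyve1 had 1 count and Cd163 had 0 counts in the positive cells, where 3 counts correspond to 0.325 CPM. Timd4, a phosphatidylserine receptor, had 11 counts, or 1.19 against 0.163 CPM. Cbr2, a carbonyl reductase, lay under the 5 CPM limit over all cells, with 300 counts in 81 positive cells (32.5 CPM) and 316 counts in all others (2.14 CPM). A gene under that limit can show a high level only in the small group, so no count is drawn over such genes in the main comparison.

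The relatives of the 2 markers were read next. All 3 measured Ms4a family genes were higher, with Ms4a6c at 214 against 84.6 CPM, Ms4a6d at 143 against 56.2 CPM and Ms4a6b at 59.7 against 23.6 CPM. Folate genes other than Folr2 showed the opposite direction. Of 15 measured, 12 were lower and 2 higher, with a median log2 ratio of -0.94. Slc19a1, the reduced folate carrier, stood at 18.8 against 50.9 CPM, and Shmt2, the mitochondrial serine hydroxymethyltransferase, at 135 against 265 CPM. The higher genes included Ggh, which trims folate polyglutamates in the lysosome (29.4 against 17.3 CPM). Folr1, the other folate receptor of the list, was near the limit of detection at 1.73 against 1.16 CPM.

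Complement genes were higher in 10 of 12 cases and lower in none, with a median log2 ratio of 1.31. C1qa, C1qb and C1qc, the 3 chains of the recognition molecule C1q, stood at 1111, 751 and 1232 CPM against 273, 230 and 329 CPM. In single positive cells the 10th, 50th and 90th percentiles of C1qa were 161, 947 and 2641 CPM, against 0, 116 and 798 CPM in the others. The groups overlapped, and the 10th percentile of the positive cells lay above the median of the others. The receptors C3ar1 (424 against 124 CPM) and C5ar1 (51.0 against 22.1 CPM) were higher too. C3, the central component of the cascade, was scarce, with 1.30 against 3.40 CPM.

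Receptors for dead cells, lipoproteins and antibodies were higher in part. Among 22 efferocytosis and scavenger genes 12 were higher and none lower, with a median of 0.84. Without Siglec1, which was under 5 CPM in the other kept cells, this was 11 of 21 and 0.71. Cd300c2 stood at 98.0 against 21.6 CPM, the sialic acid receptor gene Siglec1 at 19.9 against 4.58 CPM and Trem2, a lipid-sensing receptor that signals through Tyrobp, at 560 against 285 CPM. Scarb1 stood at 51.4 against 69.0 CPM and was not counted either way. Among 15 ITAM adaptor and Fc receptor genes 10 were higher and none lower. Besides Fcgr4 these included Fcrls (32.6 against 6.61 CPM) and Fcgr1, the high-affinity IgG receptor (356 against 152 CPM), whereas the inhibitory receptor gene Fcgr2b stayed under 1.5-fold.

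Lysosome genes were higher in 22 of 30 cases and lower in none, with a median of 0.83. The protease gene Ctsb was counted in all 285 positive cells and stood at 2881 against 742 CPM, with a median cell at 2697 against 564 CPM. Ctsd stood at 2116 against 647 CPM and Lipa, the lysosomal acid lipase, at 169 against 54.0 CPM. Ctsc, at 177 against 206 CPM, shows that not every cathepsin was higher.

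Lipid handling genes were higher in 17 of 22 cases and lower in none, with a median of 1.26. Without 2 genes under 5 CPM in the other kept cells, among them Abca1, this was 15 of 20 and 1.16. Apoe, the lipid carrier apolipoprotein E, stood at 5644 against 1466 CPM, and its cell percentiles were 1076, 4025 and 15256 CPM against 140, 1056 and 3133 CPM. Plin2, which coats lipid droplets, stood at 679 against 208 CPM, Fabp4 at 58.3 against 10.6 CPM and the cholesterol exporter gene Abca1 at 30.6 against 4.89 CPM. Pparg, a nuclear receptor of fatty acid uptake, stood at 14.4 against 7.39 CPM.

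Chemokines were higher in 11 of 13 cases and lower in none, with a median of 1.82. Ccl7 and Ccl12 were under 5 CPM in the other kept cells and could enter only as higher genes, and without them 9 of 11 were higher, with a median of 1.45. Ccl12 stood at 35.8 against 4.03 CPM, Ccl2, which draws monocytes, at 141 against 39.1 CPM, and Cxcl16 at 55.1 against 11.0 CPM. Ccl4, another chemokine gene, stood at 163 against 30.0 CPM. The 2 genes not counted either way were the receptors Ccr2 (15 against 20.3 CPM) and Cx3cr1 (91.1 against 94.8 CPM).

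**Figure D3:**
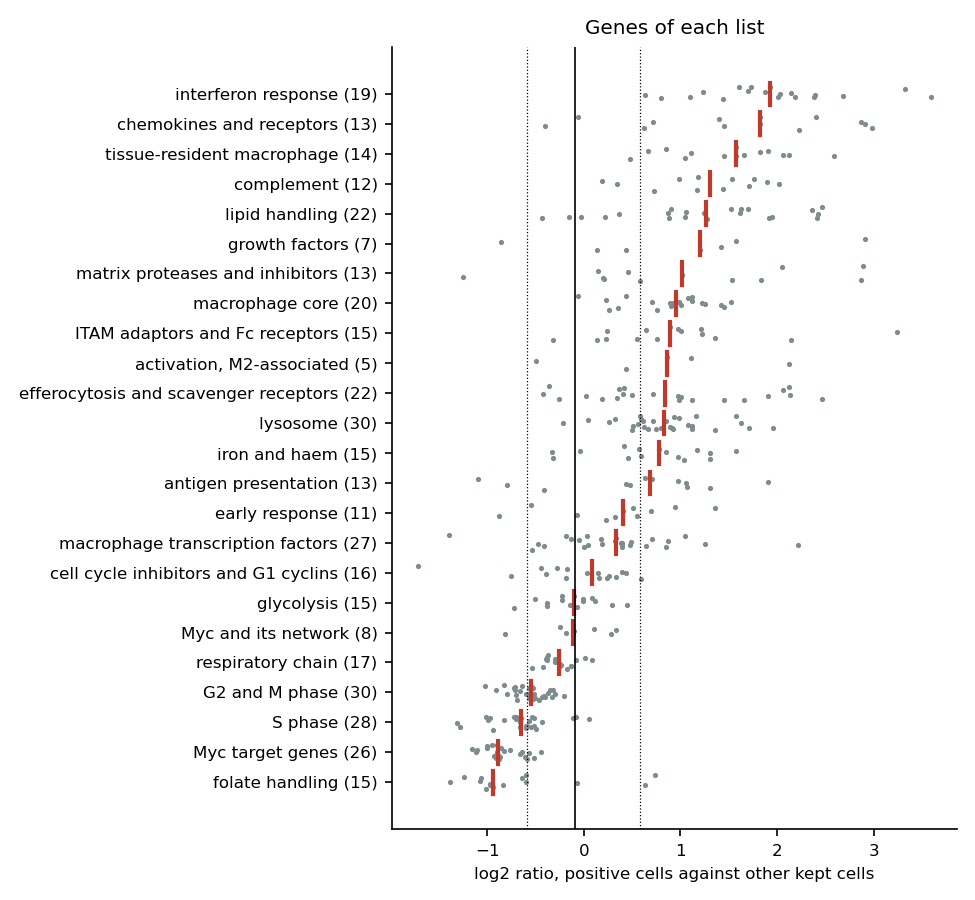
Log2 ratio of positive to other kept cells for each tested gene (dots) in the lists with at least 5 tested genes, with the list's median as a red bar. The solid line is the median of all 8442 genes, -0.09, and the dotted lines mark 1.5-fold, and the medians run from 1.92 for interferon response to -0.94 for folate handling.

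The interferon response list was higher in all 19 measured genes, with the highest median among the lists with at least 5 tested genes, 1.92. Without Ifit3, which was under 5 CPM in the other kept cells, the count was 18 of 18 and the median 1.90. Isg15, a ubiquitin-like modifier, stood at 250 against 46.9 CPM and was counted in 222 positive cells. Ifi27l2a stood at 1904 against 366 CPM, and Irf7, a transcription factor that amplifies the interferon response, at 59.1 against 13.7 CPM. Stat2, which carries the receptor's signal to the nucleus, stood at 34.8 against 8.45 CPM. Ifitm3 showed the smallest difference of the genes named here, 1.55-fold at 2844 against 1833 CPM. Within ranges of depth the list's median was 2.27, 2.12, 2.24 and 1.65 from the shallowest to the deepest range, while that of all genes tested was -0.28, -0.04, -0.06 and -0.10.

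Interferon-induced genes share a promoter element, the interferon-stimulated response element (ISRE), so 4 promoters that hold its core are shown, those of Isg15 and of the leading genes Ifit3, Rsad2 and Fcgr4. They were chosen with the matches known and do not stand for the leading genes at large. The same windows of Selenop and Spp1, not shown, each held 1 ISRE core and 1 PU.1 core. Those of Ccl6, Timp2, Ms4a7 and Folr2 held none of the elements marked here. Each window is the 250 bases before the RefSeq start in GRCm38.p6, 5′ to 3′ on the gene's strand. That start lies 2220 bases from the GENCODE start for Selenop, whose window is 1 of 3, and 329 bases from it for Timp2. Capitals mark the ISRE core, searched on both strands as 2 copies of GAAA with 2 bases of any kind between, the PU.1 core GAGGAAG and the AP-1 site TGAGTCA, and a match on the other strand appears as its reverse complement. The windows are chr19:34583279-34583528 (plus strand) for Ifit3, chr12:26456453-26456702 (minus strand) for Rsad2, chr4:156200819-156201068 (minus strand) for Isg15 and chr1:171018676-171018925 (plus strand) for Fcgr4.
Ifit3: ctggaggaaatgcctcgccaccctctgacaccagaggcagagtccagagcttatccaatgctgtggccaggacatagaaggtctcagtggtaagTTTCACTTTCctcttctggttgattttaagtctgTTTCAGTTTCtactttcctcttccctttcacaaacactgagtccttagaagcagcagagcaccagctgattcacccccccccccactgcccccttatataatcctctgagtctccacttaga
Rsad2: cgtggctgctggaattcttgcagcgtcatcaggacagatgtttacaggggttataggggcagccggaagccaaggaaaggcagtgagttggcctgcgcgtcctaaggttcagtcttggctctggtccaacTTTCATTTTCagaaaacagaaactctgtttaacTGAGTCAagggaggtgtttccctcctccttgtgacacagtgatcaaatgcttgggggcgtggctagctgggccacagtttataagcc
Isg15: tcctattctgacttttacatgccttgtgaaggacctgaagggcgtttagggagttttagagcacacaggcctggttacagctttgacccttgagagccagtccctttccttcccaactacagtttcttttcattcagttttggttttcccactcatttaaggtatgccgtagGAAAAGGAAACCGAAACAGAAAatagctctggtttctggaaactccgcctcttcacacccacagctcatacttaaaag
Fcgr4: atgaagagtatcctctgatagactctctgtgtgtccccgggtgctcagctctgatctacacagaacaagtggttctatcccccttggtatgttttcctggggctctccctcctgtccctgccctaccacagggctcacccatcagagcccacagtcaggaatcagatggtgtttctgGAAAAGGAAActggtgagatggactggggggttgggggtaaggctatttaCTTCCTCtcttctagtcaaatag

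Ifit3 holds 2 ISRE cores, 156 to 147 and 122 to 113 bases before the start. In Isg15 there are 3 that overlap by 4 bases, between 78 and 57 bases before the start, and they form 1 run of capitals. Rsad2 holds 1 ISRE core (120 to 111) and an AP-1 site (87 to 81). Fcgr4 is not in the interferon list, and its window holds 1 ISRE core (73 to 64) and 1 PU.1 core (23 to 17), the binding letters of the macrophage factor PU.1. In windows of 300 bases, which add the 50 bases after the start, the ISRE core was present in 10 of the 13 interferon genes with a window (76.9%). It was present in 5 of the 15 leading genes with a window (33.3%). The shares were 3.72% of 6774 tested genes, 8.11% of the higher and 2.23% of the lower genes. The PU.1 core was present in 16.2% of tested, 20.2% of higher and 13.4% of lower genes, and the AP-1 site in 4.06, 8.41 and 3.28%. The letters CACGTG (E-box) and TGCTGAC were searched as well and were not more frequent in higher than in all tested genes. The E-box was present in 12.6% of tested, 10.6% of higher and 14.4% of lower genes, and TGCTGAC in 3.99, 3.83 and 3.41%. A match is a stretch of letters and not a measured binding site.

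The positive cells differed in how many interferon genes were counted in them. At equal depth 197 of the 285 cells (69.1%, exact interval 63.4 to 74.4%) had counts of 5 or more interferon genes, against 16.9% of the other kept cells and 9.95% of the cells high in Prtn3 and Ly6c2. The median positive cell had counts of 6 interferon genes at equal depth, so the limit of 5 lies close to the median. Cells can fall on either side of it through counting error, and a spread beyond that was not tested. The remaining 88 positive cells were then compared with the other kept cells. This split was made after the data were seen and by the interferon genes themselves, which fixes that few of them were counted in the 88 cells. Of 8442 genes, 370 were higher (4.38%) and 958 lower (11.3%). Among 19 interferon genes 3 were higher and 1 lower, with a median of 0.24 against -0.14 for all genes tested. In these 88 cells 11 of 14 resident genes were higher with a median of 1.25, as were 8 of 12 complement genes (0.96) and 13 of 22 lipid genes (0.87). Spp1 stood at 1638 CPM, C1qa at 786 CPM and Timp2 at 206 CPM in the 88 cells, between the 197 cells (2820, 1283 and 346 CPM) and the other kept cells (452, 273 and 39.2 CPM). Folr2 stood at 170 CPM in the 197 cells and 130 CPM in the 88, and Ms4a7 at 308 and 135 CPM.

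Transcription factors of macrophages differed less than these effector genes. Of 27 measured, 7 were higher and 1 lower, with a median of 0.33. Id2, an inhibitor of basic helix-loop-helix factors, stood at 112 against 23.5 CPM and Maf at 193 against 93.1 CPM. Maf is known for holding macrophages in a differentiated, non-dividing state. Klf4 was the lower gene, at 12.4 against 34.3 CPM. Spi1, which encodes PU.1, stood at 249 against 220 CPM and Irf8 at 114 CPM in both groups.

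Growth genes were lower. Myc itself stood at 22.7 CPM (19.7 to 26.0) against 40.8 CPM (39.8 to 41.9), while its partner gene Max stood at 58.1 against 47.8 CPM and was not counted either way. The files do not tell counts of the introduced c-Myc from those of the cell's own gene. Of 26 Myc target genes 23 were lower and none higher, with a median of -0.89. Srm, spermidine synthase, stood at 113 against 245 CPM, Ncl, nucleolin, at 1217 against 2267 CPM, and Npm1, nucleophosmin, at 855 against 1605 CPM. Cdk4 and Ranbp1 were among the targets that did not reach 1.5-fold.

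Cell cycle genes were lower in part. For S phase 18 of 28 genes were lower and none higher (median -0.65), or 10 lower with 10 CPM added to both levels. Among the 18 were Cdc45, a replication helicase factor, at 13.5 against 35.2 CPM and Rrm2, of ribonucleotide reductase, at 33.3 against 66.5 CPM. Pcna did not differ by 1.5-fold, at 98.5 against 94.7 CPM. For G2 and M phase 12 of 30 were lower and none higher (median -0.55), or 20 lower under the scaling without ribosomal protein, mitochondrial and ribosomal RNA-like counts. Among the 12 were Cdc20, an activator of the anaphase-promoting complex, at 46.2 against 95.1 CPM and the topoisomerase gene Top2a at 65.8 against 117 CPM. At equal depth 5 or more S phase genes were counted in 30.5% of positive cells and 60.1% of the others, and 5 or more G2 and M phase genes in 34.7 and 64.0%. Cells with many such genes were thus present among the positive cells, in a smaller share. Cdkn1a, the p53 target p21, stood at 320 against 314 CPM.

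The genes at the bottom of the ranking include some that are known from granulocyte and monocyte precursors, which lie close to what the rule excluded. The list for monocytes and immature myeloid cells as a whole did not point 1 way, since of 5 measured genes 2 were lower (Hp and Vcan) and 2 higher, F13a1 at 83.5 against 37.7 CPM and Ly6a at 12.5 against 5.79 CPM. Ctsg, cathepsin G, had 3 counts in the positive cells and stood at 0.325 against 6.07 CPM, with a wide interval on the ratio (18.7-fold lower, 6.38 to 90.9). Slpi, a secreted protease inhibitor, stood at 4.65 against 27.8 CPM, Hp, haptoglobin, at 7.90 against 39.3 CPM, and Ighm at 15.6 against 69.9 CPM. Vcan, a matrix proteoglycan of monocytes, stood at 5.95 against 25.1 CPM. Egfl7 was the most abundant of the 15 lowest genes, at 27.2 against 99.1 CPM (3.65-fold lower, 3.22 to 4.15).

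The positive cells were then compared among themselves by their marker level, in 84 cells of under 200 CPM, 91 of 200 to under 400 CPM and 110 of 400 CPM or more. Between the highest and the lowest range 473 of 4534 genes were higher (10.4%) and 453 lower (9.99%). Spp1 stood at 1575, 2270 and 3576 CPM from the lowest to the highest range, after 350 CPM in cells without a marker count and 744 CPM in those with 1 or 2. Apoe followed the same order, with 3249, 5506 and 8703 CPM, and so did Ifit3, with 13.8, 44.5 and 80.4 CPM. The order ran the other way for Srm, with 146, 124 and 61.2 CPM, and for Ncl, with 1516, 1280 and 789 CPM. It did not hold for all genes higher in the positive cells, since Ccl2 stood at 149, 131 and 141 CPM.

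By list, 18 of 19 interferon genes were higher in the highest than in the lowest range (median 1.28), and 14 of 18 lipid genes (0.93). Of 23 Myc targets 20 were lower (-0.85). The genes leading this comparison included Malat1, a nuclear noncoding RNA, at 325 against 79.4 CPM, and, at its lower end, replication-dependent histone genes such as Hist1h1b at 23.1 against 93.2 CPM. The 3 ranges also differed in depth, with medians of 35764, 27333 and 21892 counts, in the ribosomal protein share, 29.6, 27.3 and 23.7%, and in the share of Gm42418 and AY036118, 7.33, 7.53 and 9.44%. The part of depth and composition in these differences was not tested.

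**Figure D4:**
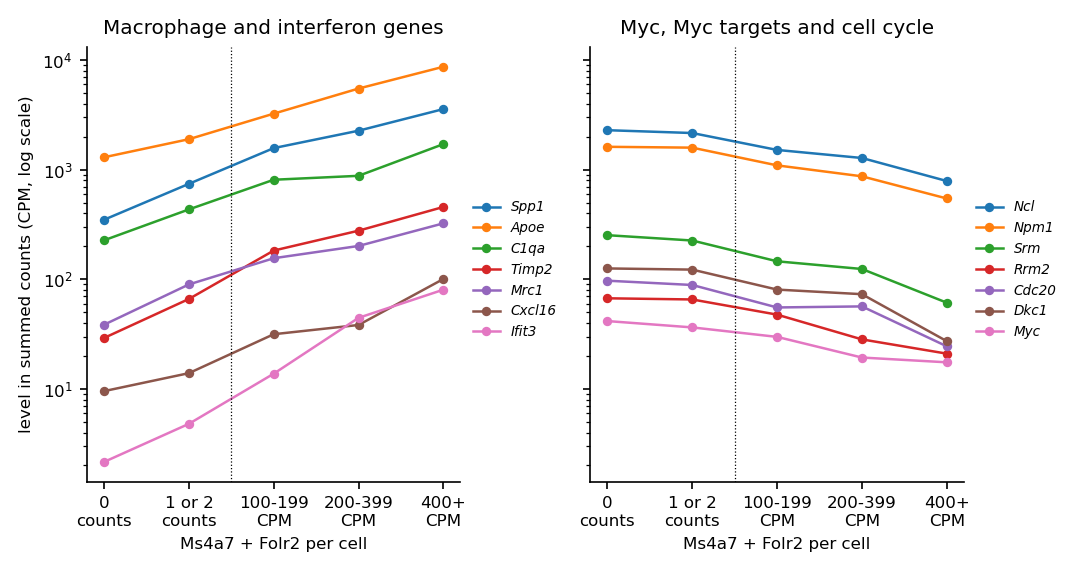
Levels in CPM (log scale) of 7 genes higher and 7 lower in the positive cells, over kept cells with 0 and with 1 or 2 marker counts and over positive cells of under 200, 200 to under 400 and 400 or more CPM of the markers. The dotted line separates the other cells from the positive cells, and Spp1 goes from 350 to 3576 CPM while Srm goes from 253 to 61.2 CPM.

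Cells in which both markers were counted were compared with cells with 1 of them. Of 4534 genes, 40 were higher (0.882%) and 51 lower (1.12%). The leading genes were Cd72, an inhibitory lectin receptor, at 37.5 against 10.5 CPM, and Atp6v0d2, a subunit of the lysosomal proton pump, at 31.9 against 14.1 CPM. At the lower end Rrm2 stood at 23.4 against 48.1 CPM and Cks2, a cyclin-dependent kinase subunit, at 58.8 against 111 CPM. Cells with both markers also had a higher median marker level, 418 CPM, against 291 CPM with Ms4a7 alone and 195 CPM with Folr2 alone. Between the highest and the lowest range of marker level, Cd72 and Atp6v0d2 led as well, at 62.2 against 7.74 CPM and 56.6 against 5.45 CPM. The part of the marker level in this comparison was not tested.

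Cells with Folr2 alone and cells with Ms4a7 alone were compared next. In the 34 cells with Folr2 alone, 346 of 4534 genes were higher (7.63%) and 625 lower (13.8%) than in the 88 cells with Ms4a7 alone. With fewer cells, counting error takes more genes past 1.5-fold, so these counts are not comparable with those above. Of 19 interferon genes 17 were lower, with a median of -1.47. Ifit3 had 2 counts (1.58 CPM, 0.191 to 5.70) against 141 counts (58.0 CPM, 48.8 to 68.4), and Rsad2 had 7 counts (5.52 CPM) against 258 (106 CPM). The chemokine gene Ccl7 had 6 counts (4.73 CPM) against 137 (56.4 CPM). Such levels can rest on 1 cell, since 1 positive cell held 18.9% of the Ccl7 counts of all positive cells. Cxcl10 had 1 count against 154, and 136 of the 154 came from 1 cell. Mrc1, Apoe and Selenop were lower as well, at 63.1, 2667 and 93.9 CPM against 273, 5714 and 315 CPM.

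Spp1 did not follow this order, at 2371 CPM with Folr2 alone and 2073 CPM with Ms4a7 alone. Genes of growth were higher with Folr2 alone, with 17 of 23 Myc targets counted as such and a median of 0.68. Odc1, ornithine decarboxylase of polyamine synthesis, led at 74.2 against 25.1 CPM, and Srm stood at 198 against 93 CPM. The Folr2-only cells were deeper, with a median of 36612 against 26376 counts, and lower in marker level, with 195 against 291 CPM.

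The comparison was repeated within ranges of the marker level, an alternative chosen after the data were seen. Under 200 CPM, with 17 and 27 cells, 822 of 4534 genes were lower (18.1%) and 311 higher (6.86%), and 15 of 19 interferon genes were lower (median -1.16). At 200 CPM or more, with 17 and 61 cells, 695 were lower (15.3%) and 690 higher (15.2%), and 16 of 19 interferon genes were lower (-1.57). Of 23 Myc targets 8 were higher in the first range (median 0.44) and 20 in the second (0.90). Genes of G2 and M phase turned direction between the ranges, with 7 of 23 lower and 0 higher in the first and 17 higher and 0 lower in the second. The order seen for Spp1 in all these cells did not hold in the second range. All 18 measured lipid genes, Spp1 among them, had log2 ratios under 0 with Folr2 alone there. Ifit3 stood at 1.36 against 18.2 CPM in the first range and 1.87 against 85.3 CPM in the second. Mrc1 stood at 42.3 against 219 CPM and 91.7 against 311 CPM. The direction of both genes was thus the same within the ranges, on few cells of 1 sample.

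**Figure D5:**
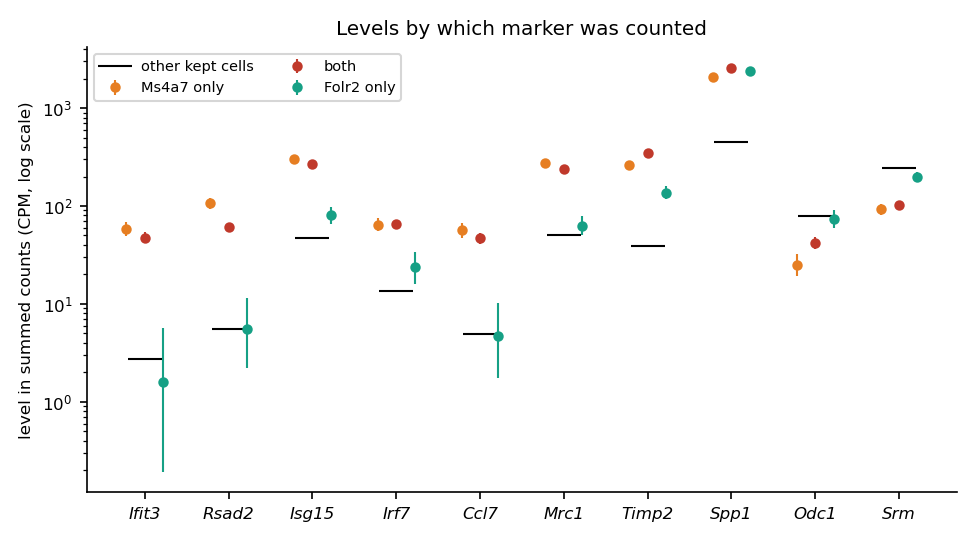
Levels in CPM (log scale) of 10 genes in positive cells with Ms4a7 only (88 cells), both markers (163) and Folr2 only (34), with exact 95% Poisson intervals, and dashes at the level in the other kept cells. Ifit3 stands at 58.0, 47.6 and 1.58 CPM, and Spp1 at 2073, 2570 and 2371 CPM.

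Across all 5207 kept cells at equal depth, the genes most like the 2 markers were ranked by Pearson's r of log counts with the summed marker. The highest were Timp2 (0.41), Ctsb (0.39), Selenop (0.37), Ctsd (0.35) and Spp1 (0.34). The lowest were Rpsa (-0.31), a ribosomal protein gene, Eif5a (-0.29), a translation factor, and Snrpg (-0.28), of the spliceosome. The cells share 1 library and sparse counts, so these values only describe the order. Within the 285 positive cells the summed counts of the lipid and lysosome lists varied together most closely (r = 0.78), and those of Myc targets ran against the lipid (-0.51), lysosome (-0.46) and interferon lists (-0.43). The lipid and lysosome lists, which both hold Lipa, were also the closest pair in the other kept cells (r = 0.63). For Myc targets the values there were -0.21, -0.02 and -0.22.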

How the data were processed

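Single-cell RNA of induced macrophages was read from 1 matrix of 20034 genes and 6837 barcodes with 160606727 counts. The deposited values are raw counts per gene and barcode, written by PISA 0.12 per the file headers. Cell Ranger and mm10 are named without a role in the submitters' processing notes. Whether the counts are of molecules, and how barcodes were called as cells, is not given in the sources used here.

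Counts were summed over cells and scaled to counts per 1000000 (CPM) with Python 3.11.15 (numpy 2.4.6, scipy 1.17.1, pandas 2.3.3, matplotlib 3.10.9). Kept cells held a median of 24588 counts. Log2 ratios used a pseudocount of 1 CPM. Genes needed 5 CPM over all kept cells, or 20 CPM over the positive cells for comparisons among them. Ms4a7, Folr2, Prtn3 and Ly6c2 were left out. Intervals are exact Poisson, conditional binomial and Clopper-Pearson at 95%, for counting error only. Thinning used a fixed seed. No doublet caller was run, so doublets were left in. With 1 sample, no p-value was computed. The summing and ratio steps were tested on simulated data.

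The members, the 27 gene lists and 14 marker lists were chosen with earlier results of these data known. Of 633 list genes, 578 are in the matrix. Named genes are the 20 highest and 15 lowest, up to 4 of the largest ratios per list, all of some lists, and the leading 5 of each comparison within the positive cells. Others, such as Pcna, Cdkn1a, Ctsc, Scarb1 and the leading genes of the marker level ranges, were named after their values were seen. Promoters are from RefSeq (GRCm38.p6). Results for some genes are not reported here.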

Additional observations from a re-analysis of the deposited data

How the results depend on the processing

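Of 13 alternative settings, the requirement of 5 marker counts and 200 CPM left 173 positive cells and Folr2 alone 128, against 285. With a pseudocount of 10 CPM, 547 genes were higher and 344 lower, and 10 S phase genes were lower, against 861, 960 and 18. Without the filter on level 1476 genes and 18 chemokine genes were higher, against 861 and 11. The genes added there lie under 5 CPM over all kept cells, where a high level can show only in the small group. With scaling that left out ribosomal protein, mitochondrial and ribosomal RNA-like counts, 20 G2 and M phase genes were lower, against 12. The cause was not tested for these. Of 130 list counts under the alternatives, 127 stayed within 1.5 times the main count. Of 5434 values of 418 single genes, 4189 moved by less than their interval, 1245 by more, and 0 changed sign after being counted as higher or lower. Shares at equal depth with a second random seed stayed within their intervals for all 10 genes. Leaving out the deepest 5% of cells left 270 positive cells. Depth limits genes of few counts, such as Ctsg. No paired analysis was possible because the barcodes name no sample and no result comes from a test.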

Other observations

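Genes of iron and haem handling were higher in the positive cells in 9 of 15 cases and lower in none, against 10.2% higher among all genes tested. Hmox1, the haem oxygenase, stood at 168 against 55.7 CPM, Slc11a1, an iron exporter of phagosomes, at 42.2 against 16.5 CPM and Blvrb, a biliverdin reductase, at 232 against 93.6 CPM. Ferritin heavy chain transcripts (Fth1) were at 16902 against 11184 CPM and light chain transcripts (Ftl1) at 9536 against 5564 CPM. Tfrc, the transferrin receptor, stood at 63.6 against 32.0 CPM.

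Antigen presentation genes differed in both directions. Of 13 measured, 8 were higher and 2 lower. The higher genes included those of class I, with H2-D1 at 1088 against 438 CPM, B2m at 1334 against 638 CPM and H2-T23 at 45.5 against 11.4 CPM. The lower genes were Cd74, the class II invariant chain, at 23.7 against 51.8 CPM, and the costimulatory gene Cd86 at 9.52 against 17.3 CPM. Among matrix proteases and inhibitors 8 of 13 were higher and 1 lower, or 7 of 12 without Adamts1, which was under 5 CPM in the other kept cells, with Adam8 at 194 against 45.8 CPM, the plasminogen activator gene Plau at 46.1 against 12.2 CPM and the collagenase gene Mmp8 lower at 13.6 against 33.8 CPM. Glycolysis had 1 lower gene of 15, Hk2 (35.6 against 59.6 CPM), and none of 17 respiratory chain genes was counted either way.

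Several genes under the 5 CPM limit, chosen after their values were seen, had many of their counts in few positive cells. Cd72 had 247 counts in 81 positive cells and 208 in the 4922 others. Cd5l, a secreted protein of resident macrophages, had 136 counts in 30 positive cells, 34 of them in 1 cell, and 67 in the others. Arg1, arginase, had 60 counts in 8 positive cells, 50 of them in 1 cell, and 13 in the others. The chemokine gene Cxcl10 had 209 counts in 11 positive cells, 136 of them in 1 cell, and 311 in the others. The levels of Arg1 and Cxcl10 in the positive cells are therefore mostly those of 1 cell each. Xist stood at 1.62 against 7.82 CPM, with 15 counts in the positive cells.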
